A study of Homo sapiens with 8 samples.

Results

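The genes described here make, carry, sense and break down retinoic acid. They are ALDH1A1, ALDH1A2, ALDH1A3, CRABP1, CRABP2, CYP26B1, RARB, DHRS3 and STRA6, 9 of the 30386 genes in the deposited table, taken by gene name. They were proposed with the difference between the groups of this study in view. Their levels and fold changes are therefore given as a description, and nothing is read from a test of them. The study sequenced messenger RNA from 8 samples of human endothelial cells differentiated from 1 established induced pluripotent stem cell line, WTC-TJP1, and collected at passage 1. There were 4 samples labelled as endothelial cells (iEC) and 4 labelled as retinal endothelial cells (iREC), lettered C, D, E and F in each group. What the cells were treated with during differentiation, including any vitamin A or retinoic acid in the medium, is not given in the sources used here. Nothing in the labels says that the 4 samples of a group came from separate cultures, so p-values measure only the spread between these samples, which may be technical. All samples come from a single line, which limits the groups as models of these cell types.

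Retinol, or vitamin A, can enter cells through the membrane receptor STRA6. It is oxidised first to retinaldehyde and then, by enzymes of the ALDH1A family, to all-trans retinoic acid. DHRS3 runs the first step backwards, CRABP1 and CRABP2 bind retinoic acid in the cytoplasm, and CYP26 enzymes oxidise it for clearance. Retinoic acid acts through the nuclear receptors RARA, RARB and RARG, which bind DNA as pairs with RXR receptors, often at 2 copies of a 6-base motif in the same orientation. In the developing eye, ALDH1A enzymes and CYP26 enzymes are known to set up zones of high and low retinoic acid.

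Libraries held 14877502 to 16971865 counts for iEC, and for iREC 13739364 to 15987839. The floor of detection was set at 3 counts, which were worth 0.178 to 0.215 CPM (CPM being counts scaled to the library total, after TMM scaling); such floors cover counting error only. All 10 endothelial markers, among them PECAM1, CDH5 and VWF, were above that floor in every sample of both groups. Single markers differed between the groups in both directions. Means in iEC and iREC were 2233 and 754 CPM for PECAM1 and 1351 and 799 CPM for CDH5. For EMCN they were 4.21 and 432 CPM, and for TEK 58.9 and 833 CPM. The summed level of the 10 markers, which hides such shifts, was 6582 to 8665 CPM for iEC and, for iREC, 4359 to 9787 CPM, with the lowest value in iREC F. Sample iREC F also had the highest summed level of mural and mesenchymal markers (4460 CPM, against 614 to 1242 CPM in the other iREC samples and 234 to 488 CPM in iEC) and of epithelial markers (4924 CPM, against 302 to 1117 CPM and 391 to 1174 CPM). Results that rest on iREC F are therefore given with and without it. Within iEC, sample F was also the highest for both sums (488 CPM for mural and mesenchymal, 1174 CPM for epithelial markers). Most of the epithelial sum in iREC F came from KRT8 (3025 CPM) and KRT18 (1538 CPM). In the other samples these were at 98.6 to 602 CPM and 184 to 465 CPM. CDH1 was at 81.6 CPM in iREC F, against at most 5.14 CPM elsewhere. EPCAM was at 3.28 CPM in iREC F, with means of 1.46 CPM in iEC and 1.53 CPM in iREC.

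The promoter sequences are shown first, because RARB and the related clearance enzyme CYP26A1 carry the paired motif that retinoic acid receptors are known to bind. ALDH1A1 is shown as a member whose window lacks it, as do the windows of every member other than RARB. The sequences are those of RefSeq on the GRCh38.p14 build, taken 250 bases before to 50 bases after each start site; all 9 genes matched, with 19 windows. They were searched on both strands for the hexamer AGGTCA and for its close relatives AGTTCA, then also GGGTCA, and lastly GGTTCA, and for pairs of these in the same orientation with 1, 2 or 5 bases (NNNNN) between them, called DR1, DR2 and DR5. Each DR pair also counts as 2 hexamers. In the lines that follow, capitals mark the hexamers. The RARB stretch is chr3:25428163-25428262 on the plus strand, the 100 bases before the start site at 25428263, which lies in an intron of the gene as GENCODE 29 draws it. The CYP26A1 stretch is chr10:93073797-93073825 on the plus strand, 96 to 68 bases before the start site at 93073893, within an annotated exon; its hexamers read on the minus strand. The ALDH1A1 stretch is chr9:72953057-72953156, printed on the minus strand from which the gene is read, 103 to 4 bases before the start site at 72953053, and in an intron.
RARB: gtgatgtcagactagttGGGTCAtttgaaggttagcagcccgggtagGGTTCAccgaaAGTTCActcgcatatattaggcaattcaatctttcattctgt
CYP26A1: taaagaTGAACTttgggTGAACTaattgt
ALDH1A1: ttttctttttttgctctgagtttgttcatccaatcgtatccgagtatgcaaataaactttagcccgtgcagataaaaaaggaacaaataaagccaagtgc
The DR5 of RARB spans 53 to 37 bases before the start site, and another hexamer lies 83 to 78 bases before it. A DR5 was present in 31 of 35116 RefSeq windows (0.0883%), and among the members only in 1 window of RARB. At least 1 hexamer was present in 38.6% of all windows and in 9 of the 19 member windows, from 5 of the 9 genes. DR1 was present in 0.131% of all windows and DR2 in 0.0399%, and neither was found in a member window. A match is a description of the letters only, and binding was not measured. Sequence outside the windows was not searched.

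Among the members, ALDH1A1, CRABP1, CYP26B1 and RARB were higher in every iREC sample than in every iEC sample, and ALDH1A2 was lower in every iREC sample. CRABP2, DHRS3 and STRA6 overlapped between the groups, and ALDH1A3 did not pass the filter on low counts. Of the 8 members that passed the filter on low counts, 5 met the call rule used for all genes (adjusted p under 0.05 in edgeR's quasi-likelihood test, Benjamini-Hochberg over all tested genes), 4 of them higher and 1 lower. Over all 15330 tested genes 25.0% met it, 13.2% higher and 11.7% lower, and groups did not overlap for 29.1%. The median log2 fold change was 2.0 over the 8 fitted members and 0.02 over all tested genes. Nothing is read from the members' counts or their median, because this contrast was known when the genes were chosen.

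**Figure D1:**
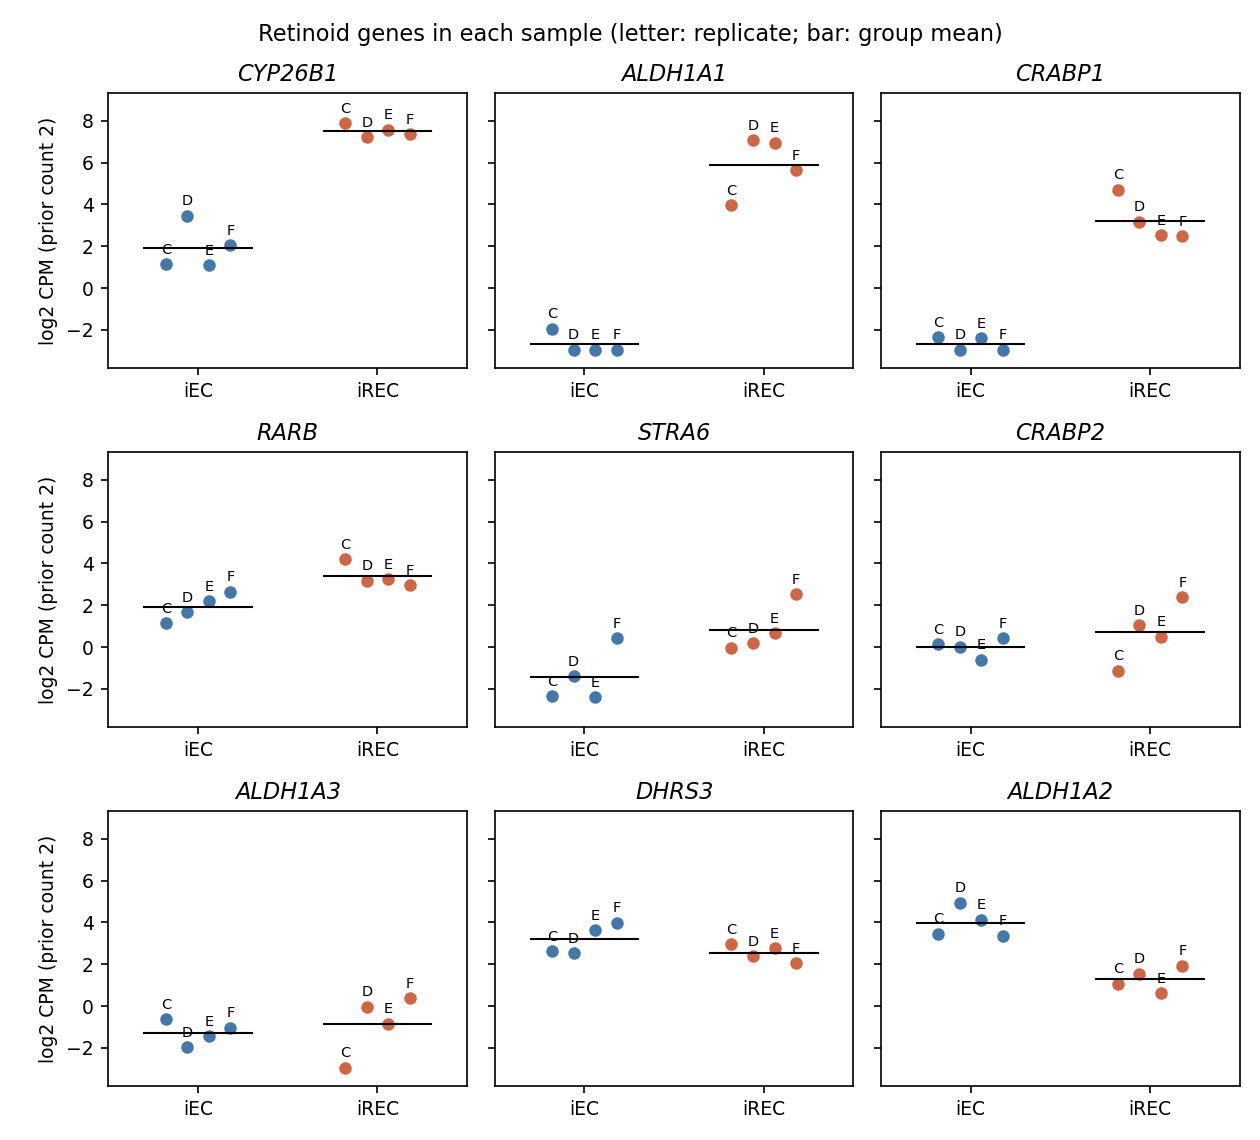
Level of each of the 9 genes in each sample, as log2 CPM with a prior count of 2 (vertical axis), for iEC and iREC (horizontal axis); each letter is a sample and each bar the group mean. ALDH1A1, CRABP1, CYP26B1 and RARB lie higher in every iREC sample than in every iEC sample, and ALDH1A2 lies lower.

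STRA6, the membrane receptor for retinol carried by its binding protein, was low in both groups. Its counts were 1, 4, 1 and 17 in iEC samples C to F and 13, 14, 24 and 86 in iREC samples C to F. The mean level was 0.398 ± 0.553 CPM in iEC (SD, n = 4) and 2.24 ± 2.28 CPM in iREC (SD, n = 4). The groups overlapped, because iEC F lay above iREC C and D, and the F sample was the highest of each group. The log2 fold change was 2.51 ± 0.96 (SE), which became 1.5 without iREC F and 4.07 without iEC F. STRA6 spans chr15:74179466-74212267 on the minus strand and overlaps CCDC33, which had at most 7 counts in any sample. The high mural, mesenchymal and epithelial marker sums of iREC F went with its high STRA6, and their part in the result was not tested.

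DHRS3, the reductase that returns retinaldehyde to retinol, had 5.98, 5.63, 12.2 and 15.7 CPM in iEC samples C to F and 7.66, 5.14, 6.66 and 4.0 CPM in the iREC samples. Samples iEC E and F stood above all others, while iEC C and D lay within the iREC range. The group means were 9.87 ± 4.91 CPM in iEC and 5.86 ± 1.62 CPM in iREC (SD, n = 4 each), a log2 fold change of -0.75 ± 0.38 (SE). The gene spans chr1:12567910-12617731 on the minus strand.

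The retinaldehyde dehydrogenases, the enzymes that form retinoic acid, differed between the groups in opposite directions. ALDH1A1 (chr9:72900662-73080442, minus strand) was almost undetected in iEC, with 2 counts in sample C and 0 in D, E and F. In iREC samples C to F it had 235, 1864, 2014 and 762 counts, or 15.4, 133, 123 and 49.9 CPM. The groups did not overlap, and within iREC samples D and E were high, F was intermediate and C was low. Against the floor of 3 counts per library, the iREC mean of 80.3 ± 57.0 CPM (SD, n = 4) was at least 374-fold higher, and leaving out any 1 iREC sample gave bounds of at least 292-fold to at least 475-fold. In bulk samples such a difference cannot be split between the number of cells that express a gene and the amount of RNA per cell.

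ALDH1A2, the family member best known from mesoderm of the embryo, went the other way. It had 10.9, 30.7, 17.3 and 10.2 CPM in iEC samples C to F and 1.96, 2.78, 1.40 and 3.67 CPM in iREC. Every iREC sample lay below every iEC sample, with iEC D the highest of all. Means were 17.3 ± 9.48 CPM for iEC and 2.45 ± 0.987 CPM for iREC (SD, n = 4 each), and the log2 fold change was -2.81 ± 0.44 (SE). The gene spans chr15:57953424-58497866 on the minus strand. It overlaps LIPC on the other strand, which had at most 10 counts in any sample.

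ALDH1A3, the remaining enzyme of the family, had 8, 2, 4 and 5 counts in iEC and 0, 12, 7 and 18 counts in iREC samples C to F. It did not pass the filter on low counts, so no fold change is given, and the groups overlapped. The gene spans chr15:100877714-100916626 on the plus strand and overlaps an antisense gene, AC015712.2, that reached 9 counts.

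On the deposited FPKM scale, which divides by gene length and so allows genes to be compared, ALDH1A2 made up 90.3% to 99.4% of the summed ALDH1A level in the iEC samples and 0.375% to 4.05% in the iREC samples. ALDH1A1 made up 0% to 3.27% in iEC and 96.0% to 99.5% in iREC. The summed level of the 3 enzymes was 1.28 to 3.51 FPKM in iEC and 5.53 to 46.1 FPKM in iREC. The leading enzyme thus differed between the groups in every sample, and the summed level did not overlap.

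**Figure D2:**
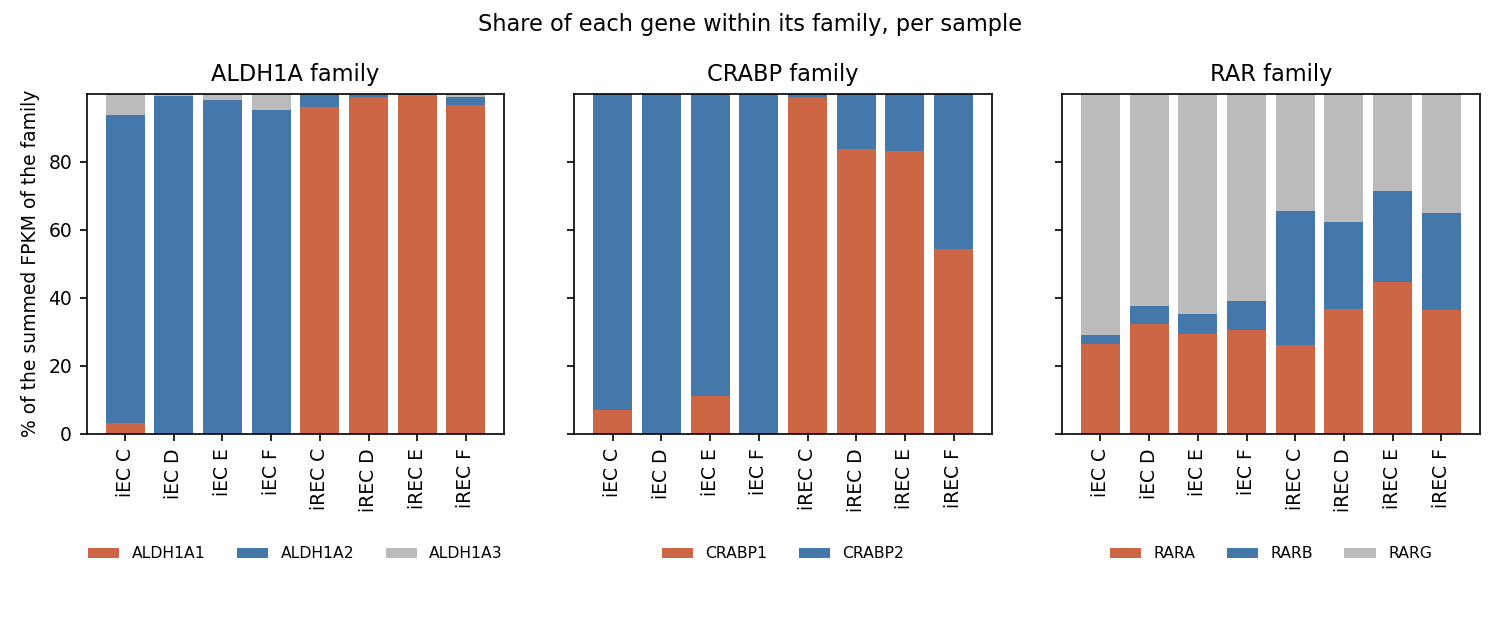
Share of the summed FPKM level (vertical axis, percent) held by each gene of the ALDH1A, CRABP and RAR families in each of the 8 samples (horizontal axis). ALDH1A2 holds 90.3% to 99.4% of the ALDH1A level in iEC, ALDH1A1 holds 96.0% to 99.5% in iREC, and RARB holds 25.5% to 39.6% of the RAR level in iREC.

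CRABP1, a cytoplasmic binding protein linked to the storage and clearance of retinoic acid, was at 1, 0, 1 and 0 counts in iEC samples C to F. In iREC it had 398, 124, 93 and 84 counts, or 26.0, 8.85, 5.68 and 5.50 CPM in samples C to F. Sample iREC C was the highest by a wide margin, the reverse of its place for ALDH1A1. The iREC mean of 11.5 ± 9.80 CPM (SD, n = 4) was at least 53.6-fold higher, against the floor in iEC. Without iREC C the bound was at least 31.1-fold. The gene spans chr15:78340324-78348230 on the plus strand.

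CRABP2, which hands retinoic acid to nuclear receptors, was low in both groups. It had 0.975, 0.885, 0.533 and 1.22 CPM in iEC and 0.327, 1.93, 1.28 and 5.11 CPM in iREC samples C to F. The groups overlapped, since iREC C was the lowest of all 8 samples and iREC F the highest. The log2 fold change of 1.26 ± 0.69 (SE) became 0.38 without iREC F, the sample with the high mural and epithelial marker sums, whose part in it was not tested. CRABP2 spans chr1:156699606-156705816 on the minus strand. Of the summed FPKM level of the pair, CRABP1 held 0% to 11.0% in the iEC samples and 54.4% to 98.9% in the iREC samples.

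CYP26B1, a cytochrome P450 that oxidises retinoic acid and is itself induced by it in many cell types, had the highest mean FPKM of the members in iREC. It had 2.08, 10.8, 2.01 and 4.01 CPM in iEC samples C to F and 234, 147, 189 and 163 CPM in iREC. The groups lay far apart, and iEC D was the only iEC sample above 5 CPM. Means were 4.73 ± 4.16 CPM for iEC and 183 ± 38.1 CPM for iREC (SD, n = 4 each), a log2 fold change of 5.27 ± 0.55 (SE), or 38.7-fold. Without iEC D the difference was 67.4-fold. CYP26B1 spans chr2:72129238-72148038 on the minus strand and overlaps no other gene of the table.

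The related enzyme CYP26A1, whose promoter carries the DR5 shown above, had 0 counts in every iEC sample and 4, 1, 4 and 10 counts in iREC samples C to F. A count of 0 allows up to 0.178 to 0.215 CPM in these libraries. The gene did not pass the filter on low counts and was not tested.

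RARB, the retinoic acid receptor whose promoter holds the DR5 and which is a textbook target of the hormone it senses, had 2.08, 3.03, 4.44 and 6.16 CPM in iEC samples C to F. In iREC it had 18.3, 8.92, 9.28 and 7.66 CPM. Every iREC sample was above every iEC sample, but iREC F at 7.66 CPM lay close to iEC F at 6.16 CPM. The means of 3.93 ± 1.77 and 11.0 ± 4.90 CPM (SD, n = 4 each) corresponded to a log2 fold change of 1.49 ± 0.40 (SE), which was 1.13 without iREC C. RARB spans chr3:25174332-25597932 on the plus strand. It shares 28 bases with TOP2B on the other strand, a gene with means of 167 CPM for iEC and 135 CPM for iREC; whether the counting used the strand is not given in the sources used here.

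RARA and RARG, the other RARs, are no members and were tested in the fit over all genes, though their list was also written with earlier results of these data known. RARG fell from 64.3 ± 9.11 CPM in iEC to 16.8 ± 4.25 CPM in iREC (SD, n = 4 each), a log2 fold change of -1.94 ± 0.20 (SE, adjusted p = 0.000207, edgeR quasi-likelihood test). RARA fell from 27.0 ± 2.09 to 16.0 ± 2.93 CPM (SD, n = 4 each), a log2 fold change of -0.76 ± 0.16 (SE, adjusted p = 0.00873, edgeR). For both, every iREC sample was below every iEC sample. On the FPKM scale RARB held 2.78% to 8.35% of the summed RAR level in iEC and 25.5% to 39.6% in iREC, while RARG held 61.1% to 70.8% and 28.5% to 37.7%. The summed RAR level was 16.0 to 20.4 FPKM in iEC and 7.22 to 12.3 FPKM in iREC, so RARB took a larger share of a smaller sum.

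Of the RXR partners, RXRA was at 60.1 ± 16.8 CPM in iEC and 105 ± 22.1 CPM in iREC (SD, n = 4 each), a log2 fold change of 0.81 ± 0.22 (SE, adjusted p = 0.0261, edgeR). The RXRA groups overlapped, and the call was lost without iEC C (adjusted p = 0.0642, edgeR), iEC E (0.0623), iEC F (0.0588), iREC D (0.0712) or iREC E (0.0718). RXRB was at 28.0 ± 4.62 and 32.4 ± 6.96 CPM and did not pass the test (SD, n = 4 each; adjusted p = 0.448, edgeR). RXRG had 2 counts in iEC C and 0 in every other sample.

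The order of the member levels on the FPKM scale differed between the groups. In iEC, DHRS3 was highest at 3.25 ± 1.68 FPKM, followed by ALDH1A2 at 1.98 ± 1.07, RARB at 1.06 ± 0.504, CYP26B1 at 0.934 ± 0.811 and CRABP2 at 0.817 ± 0.270 FPKM (SD, n = 4 each). ALDH1A3, STRA6, CRABP1 and ALDH1A1 followed at means of 0.0112 to 0.0534 FPKM. The ranges of neighbours in this order overlapped except between CRABP2 and ALDH1A3. In iREC, CYP26B1 led at 35.9 ± 7.44 FPKM, followed by ALDH1A1 at 27.6 ± 19.5, CRABP1 at 11.4 ± 9.70, RARB at 2.94 ± 1.30, CRABP2 at 1.94 ± 1.88 and DHRS3 at 1.90 ± 0.518 FPKM (SD, n = 4 each). STRA6, ALDH1A2 and ALDH1A3 were lowest, at means of 0.105 to 0.287 FPKM. There the ranges of neighbours overlapped except between CRABP1 and RARB and between DHRS3 and STRA6.

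The iREC samples also differed among themselves in which members were high. Sample C was the highest iREC sample for CRABP1, RARB, CYP26B1 and DHRS3 and the lowest for ALDH1A1, ALDH1A3, CRABP2 and STRA6. Sample F was the highest for ALDH1A2, ALDH1A3, CRABP2 and STRA6 and the lowest for CRABP1, RARB and DHRS3. The members therefore did not rise and fall together across the iREC samples.

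Genes with a pattern like that of a member were found by the root mean square difference in centred log2 CPM over the 8 samples, among 9952 tested protein-coding genes. For ALDH1A1 the nearest were STAB2, a scavenger receptor of sinusoidal endothelium, at 0.65 log2 units, DLK1, an imprinted Notch-family ligand, at 0.66, and IGF2, an imprinted growth factor, at 0.80. STAB2 had 61.4, 273, 325 and 117 CPM in iREC samples C to F, DLK1 had 16.2, 248, 280 and 224 CPM, and IGF2 had 75.7, 275, 379 and 213 CPM. As for ALDH1A1, iREC C was the lowest and iREC D and E were the highest for each. In iEC the means were 0.185 CPM for STAB2, 0.0825 CPM for DLK1 and 0.263 CPM for IGF2, near the floor as for ALDH1A1. There log2 CPM is set largely by the prior count of 2, so a shared low iEC level makes up part of the likeness. The nearest gene was PTPRK for ALDH1A2 (0.41 log2 units), TLL1 for CRABP1 (0.57), PALMD for CYP26B1 (0.38) and ADCK2 for RARB (0.27). PALMD shared the high value of CYP26B1 in iEC D, at 25.0 CPM against 4.29 to 14.5 CPM in the other iEC samples. The genes were picked for their likeness over these same 8 samples, so a shared order of samples follows in part from the choice. The likenesses are over samples that share their libraries and are given with no test.

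The other genes of the pathway came from a list of 62 written from textbook knowledge, but with earlier results of these data known. Of the list, 55 were in the table and 40 passed the filter on low counts. Of these 40, 7 rose and 6 fell in iREC (edgeR adjusted p under 0.05), 32.5% against 25.0% of all tested genes. Their median log2 fold change was 0.17, against 0.02 for all tested genes. By role, 2 of 5 retinol binding, transport and storage genes rose and none fell. Of the 6 genes that interconvert retinol and retinaldehyde, 0 passed the test in edgeR, 0 in limma-voom and 1 in DESeq2, and 1 of them (RDH13) had an unadjusted p under 0.05 in edgeR. Of 2 genes for retinoic acid formation, delivery and degradation, 1 fell. Of the 4 receptors fitted, 1 rose and 2 fell, of 9 cofactors 1 rose and 1 fell, and of 14 textbook retinoic acid responsive genes 3 rose and 2 fell.

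**Figure D3:**
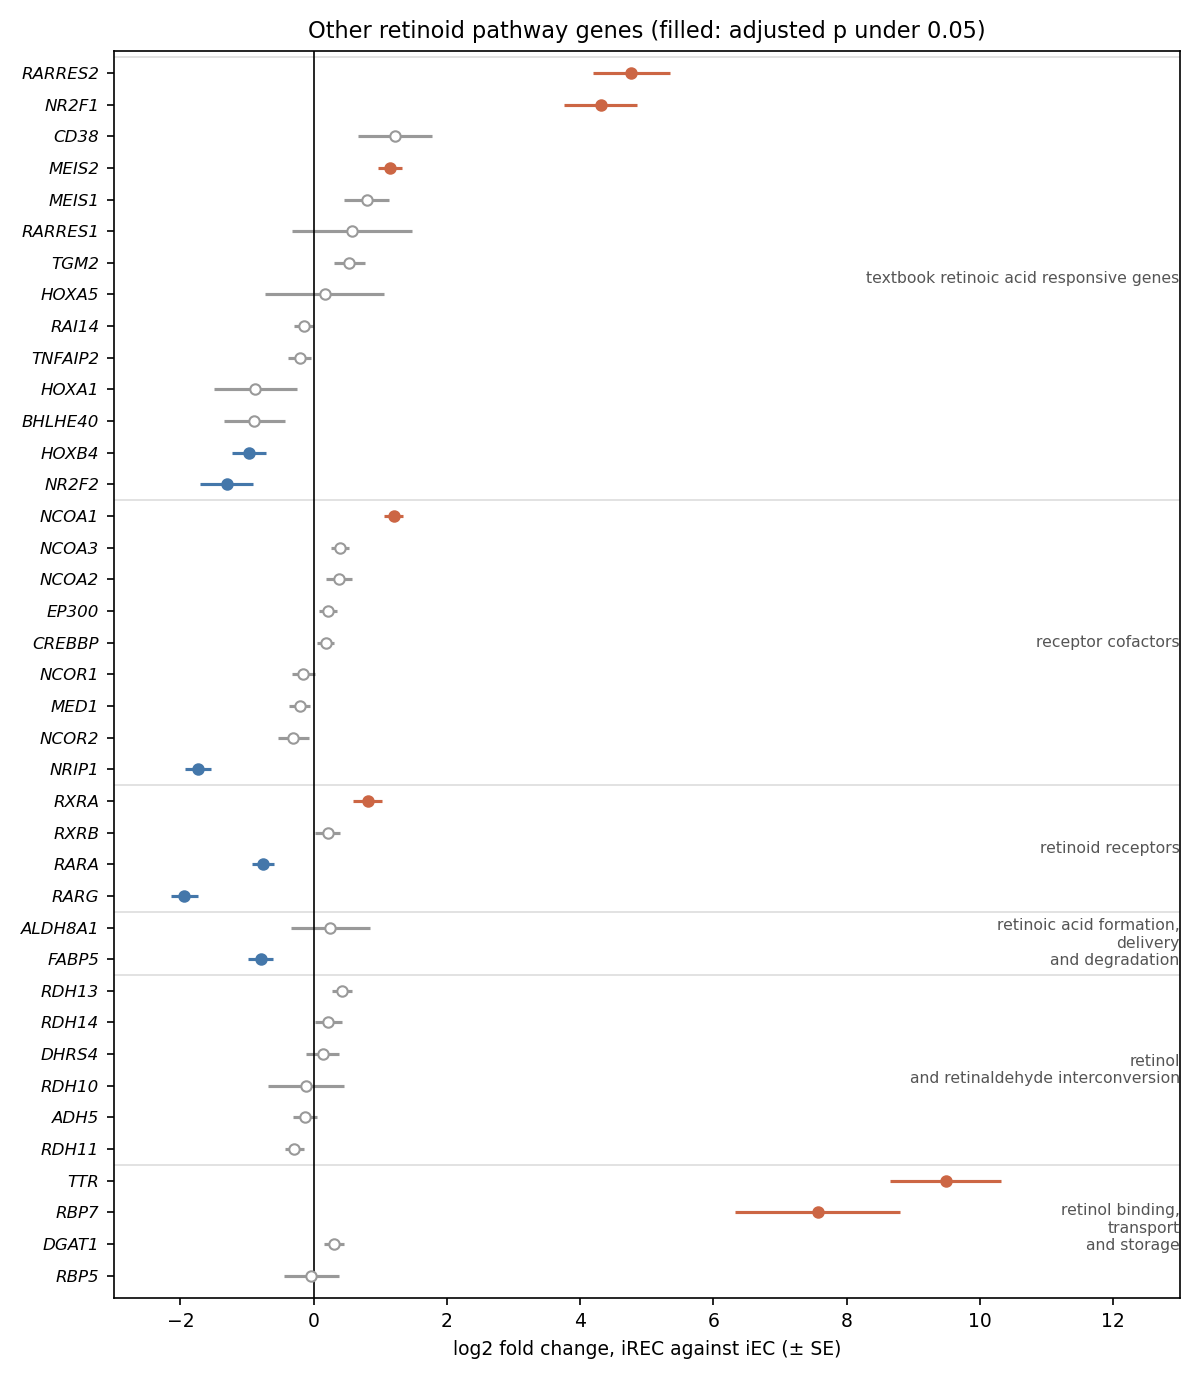
Log2 fold change of iREC against iEC with its standard error (horizontal axis) for tested retinoid genes outside the 9 members (vertical axis), grouped by role; filled points passed the edgeR test at adjusted p under 0.05. The calls lie on both sides of 0, with 7 higher and 6 lower. The fitted value of TTR (9.49) is poorly fixed because every iEC sample was at or under the floor, and it was 12.28 without iEC C.

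TTR, the plasma carrier of thyroxine and of retinol with its binding protein, had 3, 0, 0 and 0 counts in iEC and 73.0, 32.8, 41.5 and 15.0 CPM in iREC samples C to F. It rose in iREC, at least 189-fold against the floor (adjusted p = 9.64e-05, edgeR). TTR is also made by liver and visceral endoderm. The summed level of 4 markers of those cells, AFP, ALB, APOA1 and APOA2, was 0.215 to 1.07 CPM in iEC and 0.393 to 1.31 CPM in iREC. Of these, AFP had 2, 0, 8 and 3 counts in iEC samples C to F and 0, 17, 5 and 18 counts in iREC, and the other 3 had at most 7 counts in any sample. The part of such cells in the TTR result was not tested. RBP7, a cellular retinol-binding protein, rose from 0.0874 ± 0.136 CPM in iEC to 17.0 ± 16.7 CPM in iREC (SD, n = 4 each), a log2 fold change of 7.56 ± 1.24 (SE, adjusted p = 0.00226, edgeR). With 0, 1, 0 and 4 counts in iEC samples C to F the size of this change is poorly fixed, and it was 9.2 without iEC F and 6.83 without iREC D. Its iREC values were 2.81, 37.2, 24.2 and 3.73 CPM in samples C to F, so D and E were high, as for ALDH1A1.

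RDH10, the enzyme that catalyses most retinol oxidation in the embryo, was at 34.2 ± 10.6 CPM in iEC and 31.5 ± 31.7 CPM in iREC (SD, n = 4 each), and did not pass the test (log2 fold change -0.12 ± 0.57 SE, adjusted p = 0.903, edgeR). The iREC values were 10.8, 22.6, 14.1 and 78.5 CPM in samples C to F, so sample F set the spread. Without iREC F the log2 fold change was -1.11 (adjusted p = 0.0308, edgeR). FABP5, which can deliver retinoic acid to another nuclear receptor, PPARD, fell from 82.5 ± 10.4 to 47.5 ± 12.1 CPM (SD, n = 4 each), a log2 fold change of -0.80 ± 0.18 (SE, adjusted p = 0.0123, edgeR).

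Among receptor cofactors, NRIP1, a corepressor that binds hormone-bound receptors, fell from 125 ± 29.2 to 37.6 ± 6.85 CPM (SD, n = 4 each), a log2 fold change of -1.73 ± 0.20 (SE, adjusted p = 0.000358, edgeR). NCOA1, a coactivator, rose from 16.2 ± 1.42 to 37.1 ± 4.41 CPM (SD, n = 4 each), a log2 fold change of 1.20 ± 0.14 (SE, adjusted p = 0.000349, edgeR). Neither gene overlapped between the groups.

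Of the textbook retinoic acid responsive genes, RARRES2, which encodes the chemoattractant chemerin, rose from 0.754 ± 0.542 to 20.9 ± 7.52 CPM (SD, n = 4 each; log2 fold change 4.77 ± 0.58 SE, adjusted p = 0.000471, edgeR). NR2F1, an orphan nuclear receptor of the developing eye and brain, rose from 9.38 ± 5.98 to 186 ± 29.1 CPM (SD, n = 4 each; log2 fold change 4.31 ± 0.54 SE, adjusted p = 0.000581, edgeR). Its antisense neighbour NR2F1-AS1 was at a mean of 3.22 CPM in iEC and 12.8 CPM in iREC. MEIS2, a homeobox cofactor, rose from 65.5 ± 13.4 to 145 ± 23.8 CPM (SD, n = 4 each; log2 fold change 1.14 ± 0.18 SE, adjusted p = 0.00181, edgeR). For these 3 genes every iREC sample was above every iEC sample.

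NR2F2, the paralog of NR2F1 and a regulator of venous identity, fell from 158 ± 71.8 to 64.0 ± 25.0 CPM (SD, n = 4 each; log2 fold change -1.30 ± 0.40 SE, adjusted p = 0.0392, edgeR). The NR2F2 groups overlapped, and the call was lost without iEC C (adjusted p = 0.0583, edgeR), iEC E (0.110), iEC F (0.0875), iREC C (0.0744), iREC D (0.0904) or iREC E (0.0896). The other fall in this list was HOXB4, named after its values were seen because it completes the count, at a log2 fold change of -0.97 ± 0.26 (SE, adjusted p = 0.0229, edgeR). That call was lost without iEC E (adjusted p = 0.0647, edgeR) or iREC D (0.0678). TGM2, CD38, RARRES1 and HOXA5, also in this list, did not pass the test. The members' and these genes' differences share the same samples, so they are not independent.

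Markers of other cell types moved with the groups as well as with iREC F. The mesothelial and epicardial markers summed to 3.97 to 7.69 CPM in iEC and 33.4 to 83.6 CPM in iREC. Most of this was TBX18, at a mean of 5.05 CPM in iEC and 45.9 CPM in iREC. UPK1B had 1, 0, 2 and 15 counts in iEC samples C to F and 0, 275, 151 and 320 counts in iREC. WT1 had 119 counts in iREC F and at most 6 in any other sample, and MSLN, TCF21 and UPK3B had at most 6 in any sample. All 11 mural and mesenchymal markers were above the floor in every iREC sample, against 8 to 10 of 11 in the iEC samples. They did not all move the same way. TAGLN rose without overlap, its mean going from 34.6 to 619 CPM (log2 fold change 4.16 ± 0.40 SE, adjusted p = 0.000147, edgeR). Only RGS5 had a lower iREC mean, falling from 116 to 43.9 CPM (log2 fold change -1.40 ± 0.36 SE, adjusted p = 0.021, edgeR). The RGS5 groups overlapped. The retinal neuron and pigment epithelium markers summed to 4.23 to 5.98 CPM in iEC and 3.01 to 9.83 CPM in iREC, with PAX6 at 0 counts in every iEC sample and at most 2 in iREC, and RPE65 at most 6 counts in any sample. BEST1, of the same list, rose from 0.598 ± 0.102 to 2.21 ± 1.35 CPM (SD, n = 4 each). Its log2 fold change was 1.88 ± 0.49 (SE, adjusted p = 0.0222, edgeR), at 8 to 11 counts per iEC sample and 14 to 63 per iREC sample. PMEL had a lower mean in iREC, at 0.914 CPM in iEC and 0.482 CPM in iREC. MITF was at 3.40 and 4.38 CPM. Neither passed the test (adjusted p = 0.135 for PMEL and 0.587 for MITF, edgeR). The part of the mural, mesothelial and epithelial markers in the member differences was not tested. Without iREC F, the lowest CPM of ALDH1A1, CYP26B1 and RARB in iREC was 15.4, 147 and 8.92, and the highest of ALDH1A2 was 2.78.

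**Figure D4:**
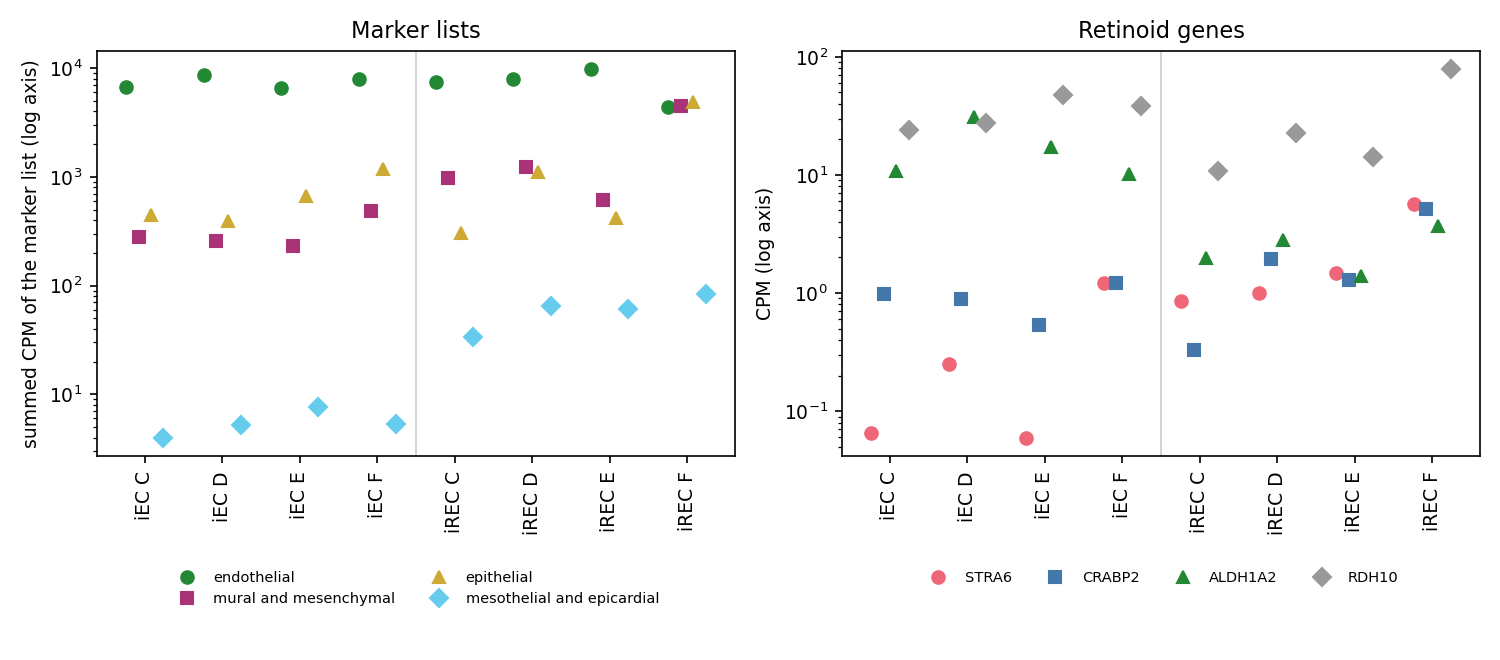
Left, summed CPM (vertical axis, log scale) of 4 marker lists in each of the 8 samples; right, CPM (log scale) of STRA6, CRABP2, ALDH1A2 and RDH10 in the same samples. Sample iREC F has the lowest endothelial sum (4359 CPM) and the highest mural and mesenchymal (4460 CPM) and epithelial (4924 CPM) sums, and also the highest STRA6 and CRABP2 of the 8 samples.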

How the data were processed

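RNA was poly-A selected and sequenced in 8 samples, 4 per group, taken from the labels. The authors deposited 1 table of raw read counts per gene, normalized signal values and FPKM. Per the submitters' processing notes, fastp and HISAT2 2.0.5 were used on hg38; the counting program is not given in the sources used here. Checked against the counts, the deposited signal is the read count over a per-sample size factor, and the deposited FPKM adds gene length and a common library size. The authors' deposited log2 fold changes and p-values were not used for any result.

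Counts were analysed with edgeR 4.0.16 in R 4.3.3 (filterByExpr, TMM, glmQLFit and glmQLFTest, group as the only term, Benjamini-Hochberg adjustment over 15330 tested genes, threshold 0.05), tested on simulated data. DESeq2 1.42.0 and limma 3.58.1 were alternatives, as were other scalings, filters, prior counts, the replicate letter as a block and each sample left out in turn. Where every iEC sample was at or under 3 counts, the fold is a bound against the highest iEC floor. Gene positions are from the table and match GENCODE 29.

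The members and lists were chosen with earlier results of these data known. Beside the members, the genes RDH10, FABP5, CYP26A1, RARA, RARG, RXRA, RXRB and RXRG were named, plus up to 4 called genes per list by absolute log2 fold change, and the genes nearest in pattern, whose mean had to reach 10 CPM in either group; a gene that this rule also names is not reported here. The haematopoietic markers (PTPRC, SPI1, CD14, CD68 and RUNX1) summed to 24.3 to 46.7 CPM in iEC and 15.2 to 19.0 CPM in iREC. Most of this was RUNX1, at a mean of 30.2 CPM in iEC and 15.5 CPM in iREC. PTPRC went the other way, with 0 counts in every iEC sample and 42, 17, 13 and 27 in iREC C to F. The pluripotent markers summed to 39.0 to 91.0 CPM in iEC and 53.3 to 505 CPM in iREC. LIN28A had a mean of 16.6 CPM in iEC and 20.5, 147, 53.7 and 482 CPM in iREC C to F. DPPA4 had means of 46.4 CPM in iEC and 25.6 CPM in iREC. POU5F1, NANOG and SOX2 had at most 19 counts in any sample.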

Additional observations from a re-analysis of the deposited data

Results flagged for a closer look

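NCOA1, a coactivator of nuclear receptors, had 18.3 CPM in iEC D, away from the 15.2 to 15.6 CPM of the other iEC samples; on the log2 CPM scale the gap took up 0.864 of the range of the group. Groups of 4 samples were looked at 46 times, and chance singles out about 1 in 20, or 2.3 of them. Its level in every iEC sample was below that in every iREC sample.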

How the results depend on the processing

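The count of genes called was 3829 and ran from 2660 to 4214 with each sample left out in turn and up to 4664 with DESeq2. The count of other pathway genes called was 13 and ran from 10 to 15. With no filter on low counts the median log2 fold change of all genes was 0.15 and 58.7% of calls were higher, against 53.0% with the filter; the other alternatives gave 51.8% to 56.1%. No fitted member changed direction under any scaling, filter, tool, prior count or left-out sample. The fitted log2 fold change of ALDH1A1 was 9.69 with a prior count of 1 and 7.82 with 5, against 10.96, and ran from 10.59 to 13.27 with a sample left out. The stricter filter removed CRABP2 and STRA6. RDH10 turned positive without iEC E (0.073), iREC C (0.17), iREC D (0.014) or iREC E (0.13), and was -1.11 without iREC F; the cause was not tested.

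With the replicate letter as a block, 3334 genes were called (1830 higher and 1504 lower), and 13 other pathway genes. Deviations of samples with the same letter correlated at 0.168 for C, -0.0794 for D, 0.0291 for E and 0.25 for F. The main fit did not pair the samples by letter, but these correlations cannot show whether a letter stands for a shared batch. In both groups, sample F was the highest for STRA6, CRABP2 and the mural and epithelial marker sums. Of the iREC samples, F correlated best with its own letter, and C, D and E with another letter. Counts limit STRA6, CRABP2 and ALDH1A3, which were at or near the floor in some samples.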

Other observations

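Several retinoid genes did not pass the filter on low counts and were not tested. RBP4, the plasma carrier of retinol, had at most 2 counts in any sample, and STRA8, a germ cell gene induced by retinoic acid, had at most 2. LRAT, which esterifies retinol for storage, had 0 counts in 6 of the 8 samples, 1 in iEC F and 4 in iREC F. CYP26C1, the remaining CYP26 enzyme, had 0, 2, 0 and 1 counts in iEC C, D, E and F and 4, 5, 13 and 0 counts in iREC. ADH1B, an alcohol dehydrogenase, had 1 count over the iEC samples and 7, 8, 8 and 5 counts in iREC, and RDH5 had 5, 8, 0 and 1 counts in iEC and 12, 8, 14 and 11 in iREC.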
